A study of Homo sapiens with 6 samples.

Results

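The genes described here flank RNASEH2A on the short arm of chromosome 19. They are 37 named genes between bases 11814273 and 13832254 of chromosome 19 (GRCh38), and they comprise 13 zinc finger genes (symbols starting with ZNF) and 24 other genes. They were chosen by position and by the fold changes of the same knockout against control comparison, so those fold changes are given as a description, with no p-value for any member. Of the 37 listed genes 36 were counted, CCDC130 under its current symbol YJU2B. WDR83OS was not analysed here. Of the 36 counted genes 33 passed the filter on low counts, among 14199 tested genes of 25330 counted, and these 33 comprise 11 zinc finger genes and 22 others.

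The 6 poly-A RNA-seq libraries come from MDA-MB-231, an established line of triple-negative breast cancer. The labels give 3 libraries of the genotype CTRV2 control and 3 of the genotype RNASEH2A KO, with no treatment and 1 shared batch label. Each library of a group is a separate passage. The labels used here do not state whether the knockout is 1 clone or a pool, or which guide or cut site was used. Any spread between libraries therefore includes a spread between passages, which cannot be told apart from that of handling and sequencing each library.

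RNASEH2A encodes the catalytic subunit of RNase H2, which cuts the RNA strand of RNA-DNA hybrids and starts the removal of ribonucleotides left in DNA. On its telomeric side lies a cluster of zinc finger genes that arose by repeated tandem duplication. Many such genes encode a KRAB domain, which recruits the co-repressor TRIM28, and DNA-binding arrays of zinc fingers, and they are known for silencing transposable elements. The other neighbours have unrelated functions and include the chaperone gene CALR and the lysosomal nuclease gene DNASE2.

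Library totals ran from 25419877 to 31596286 counts. RNASEH2A (chromosome 19, 12806584 to 12813640, plus strand) was counted 10, 6 and 15 times in controls and 7, 8 and 16 times in the 3 knockouts, as labelled, a difference in CPM that did not pass the test (exact two-sided permutation p = 0.8, where 0.1 is the smallest that 3 against 3 can give). Its count therefore does not check the labels, on which every direction below rests. All 5 listed markers of mesenchymal-like breast cancer cells were at 1 CPM or more, with a summed level of 4591 to 4994 CPM in controls and 4337 to 4954 CPM in knockouts. The luminal markers ESR1 and FOXA1, the macrophage marker CD68 and the endothelial marker CDH5 had 0 to 2 counts in every library, and the leukocyte marker PTPRC had 6, 4 and 6 counts in controls and 0 in each knockout. Other listed markers were present: ERBB2 at 116 ± 5.95 and 120 ± 9.77 CPM and GATA3 at 36.2 ± 2.11 and 32.0 ± 2.21 CPM of the luminal list, and the fibroblast markers PDGFRB at 12.9 ± 2.32 and 18.98 ± 7.20 CPM and COL1A1 at 9.95 ± 0.793 and 6.263 ± 2.502 CPM. PGR had 0, 2 and 0 counts in controls and 10, 12 and 8 in knockouts, VWF had 0, 2 and 2 against 2, 4 and 10, and PECAM1 had 18, 18 and 14 against 8, 6 and 10. The part of these markers in the results below was not tested.

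Promoter sequence was a feature of these genes on which their choice did not rest. RefSeq promoter sequences (GRCh38.p14) matched 33 of the 37 genes, 12 of them zinc finger genes. A CCAAT box was taken as the letters CCAAT on either strand within the 250 bases before a start site. It occurred in 12 of 12 matched zinc finger genes of the list and in 10 of 21 of the other listed genes. Unlisted zinc finger genes of the window were not looked at as a set. The box occurred in 48.4% of 186 tested zinc finger genes elsewhere on chromosome 19, and in 41.4% of 10277 tested protein-coding genes. A GC box, the letters GGGCGG on either strand, occurred in all 33 matched genes and in 75.5% of tested protein-coding genes. The zinc finger promoters were less rich in CpG, with a median of 11.5 CpG dinucleotides in 250 bases against 18 in the other listed genes and 21 in tested protein-coding genes. Among 66 pairs of listed zinc finger promoters, aligned end to end with gaps, the median identity was 52.3%. No identity among other promoters is given for comparison, so this median is not read as similarity. The closest pair was ZNF439 and ZNF69 at 86.2%. The stretches from 250 to 51 bases before the start are shown for 3 neighbouring zinc finger genes because they show this duplication, with CCAAT boxes in capitals. ZNF439 is chr19:11848476-11848675, ZNF69 is chr19:11887532-11887731 and ZNF700 is chr19:11924857-11925056, all on the plus strand.
ZNF439: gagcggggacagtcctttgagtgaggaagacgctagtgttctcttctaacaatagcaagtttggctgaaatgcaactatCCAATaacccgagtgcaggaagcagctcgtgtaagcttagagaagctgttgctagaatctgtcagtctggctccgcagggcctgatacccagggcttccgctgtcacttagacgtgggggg
ZNF69: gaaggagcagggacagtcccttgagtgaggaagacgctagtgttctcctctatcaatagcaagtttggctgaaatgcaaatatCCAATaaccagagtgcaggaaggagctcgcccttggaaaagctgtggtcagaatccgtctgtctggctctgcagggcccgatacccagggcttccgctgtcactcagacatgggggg
ZNF700: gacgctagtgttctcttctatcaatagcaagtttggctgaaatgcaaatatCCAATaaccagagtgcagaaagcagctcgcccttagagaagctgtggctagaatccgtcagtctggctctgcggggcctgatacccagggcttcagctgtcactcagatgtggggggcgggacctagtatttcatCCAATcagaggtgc
Every one of these 3 stretches holds a CCAAT box within a run of closely similar sequence, and ZNF700 holds another nearer to its start. For contrast, GADD45GIP1 (chr19:12957274-12957473, minus strand), picked by hand from the other listed genes, has no CCAAT box in the same stretch. Whether a CCAAT box goes with the fold change was not tested.
GADD45GIP1: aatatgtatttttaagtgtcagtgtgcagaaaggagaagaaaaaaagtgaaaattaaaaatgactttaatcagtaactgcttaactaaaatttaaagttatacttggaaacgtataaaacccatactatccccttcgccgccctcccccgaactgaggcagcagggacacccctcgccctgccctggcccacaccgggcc
CALR (chr19:12938359-12938558, plus strand) is shown because its level was nearly the same in both groups while its neighbours were lower. It held the only ER stress element of the matched genes, CCAAT, 9 bases of any kind and CCACG on either strand, which contains a CCAAT box and occurs in 0.165% of tested protein-coding genes. Only the element, here on the reverse strand, is in capitals. Further CCAAT boxes in this stretch are left in lower case. Whether this element goes with the fold change of CALR was not tested.
CALR: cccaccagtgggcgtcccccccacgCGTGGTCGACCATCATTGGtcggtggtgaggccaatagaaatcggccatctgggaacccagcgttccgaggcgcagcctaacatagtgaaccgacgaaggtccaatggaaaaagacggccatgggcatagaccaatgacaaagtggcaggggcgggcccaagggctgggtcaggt
A match of letters is a description of the sequence and not evidence that a factor binds there.

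Most of the tested genes around RNASEH2A were lower in the libraries labelled knockout. The log2 fold change, fitted by edgeR on counts scaled by TMM, was below 0 in 30 of 33 members, against 49.4% of all tested genes, and its median was -0.25, against 0.00 over all tested genes. In 12 members all 3 knockout libraries lay below all 3 controls in CPM (counts scaled to library size with TMM factors), against 17.4% of all tested genes, and in 0 members did they lie above, against 16.1%. The edgeR test called 9 members lower, against 6.22% of all tested genes, and 0 higher, against 5.88%, at an adjusted p under 0.05. Since this comparison was in view when the genes were listed, nothing is read from these shares. The number called lower was 5 without control replicate 2, without control replicate 3 or without knockout replicate 3. In bulk RNA, a lower level in every cell and a larger loss in some of the cells cannot be told apart.

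**Figure D1:**
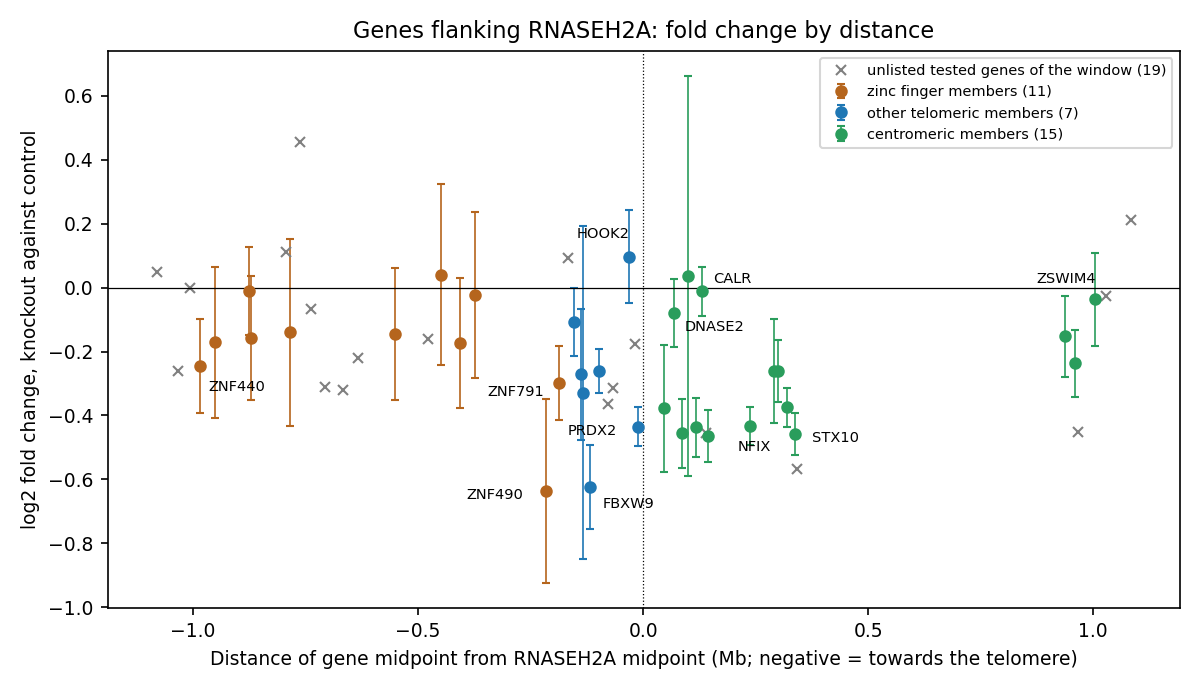
Log2 fold change of the 33 tested members (points, with bars of 1 standard error) against the distance of each gene's midpoint from that of RNASEH2A in Mb, with 19 unlisted tested genes of the window as crosses. Zinc finger members lie between -0.64 and 0.04 with wide bars, and PRDX2, GCDH, FARSA, GADD45GIP1, NFIX and STX10 lie close together at -0.43 to -0.46.

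The zinc finger genes were the less shifted and less precisely measured part. The 11 tested ones had a median log2 fold change of -0.16, from -0.64 to 0.04, and 10 of 11 were below 0. The median was -0.10 without control replicate 1 and -0.22 without knockout replicate 1. Their median standard error was 0.21, against 0.11 in the 22 other tested members, and their median control level was 4.61 CPM, against 31.4 CPM. None of them was called by edgeR, DESeq2 or limma-voom, and edgeR called 2 lower without knockout replicate 1 and 1 lower with the replicate number as a block. ZNF791, the highest of them, stood at 24.03, 24.03 and 23.09 CPM in controls and 22.7, 17.0 and 18.1 CPM in knockouts. It was the only zinc finger member whose groups did not overlap, with a log2 fold change of -0.30 ± 0.12 (SE). ZNF440 stood at 11.74, 9.47 and 9.32 CPM in controls and 9.94, 7.58 and 8.24 CPM in knockouts. Here knockout replicate 1 lay above 2 controls, and the log2 fold change was -0.25 ± 0.15. ZNF439 stood at 7.05, 5.96 and 4.36 CPM in controls and 6.35, 3.67 and 5.42 CPM in knockouts. Its spread within each group exceeded the difference between the groups (-0.17 ± 0.24). ZNF490 had the lowest value of all members (-0.64 ± 0.29), from 2.40 ± 0.542 CPM (SD, n = 3) in controls to 1.53 ± 0.454 CPM in knockouts, and its groups overlapped. ZNF700 (-0.16 ± 0.20), ZNF44 (-0.14 ± 0.21) and ZNF433 (-0.14 ± 0.29) had shifts smaller than their standard errors. ZNF69 (-0.01), ZNF443 (-0.02) and ZNF442 (0.04) were nearest to no change.

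Sequence shared between the zinc finger genes could move reads from one to another. ZNF443 and ZNF799 are the closest pair by this measure: 13.4% of all 100-base stretches of the GENCODE 29 transcripts of ZNF443 occur in another listed gene, mainly ZNF799, and 6.93% of those of ZNF799 do. ZNF443 stood at 2.23, 2.63 and 2.70 CPM in controls and 2.52, 3.23 and 1.68 CPM in knockouts. ZNF799 stood at 2.73, 2.53 and 2.14 CPM in controls and 2.24, 2.16 and 2.18 CPM in knockouts, with a log2 fold change of -0.17 ± 0.20. The groups overlapped for both genes, and their split of reads is uncertain. In the other 9 tested zinc finger members under 1% of stretches were shared with another listed gene, and the median of these 9, a subset chosen after seeing the data, was also -0.16.

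The members on the telomeric side other than zinc finger genes had a median of -0.27 over 7 tested genes. PRDX2, a peroxiredoxin that breaks down hydrogen peroxide and lies closest to RNASEH2A (12796823 to 12801800), stood at 156, 152 and 151 CPM in controls and 115, 109 and 116 CPM in knockouts. The groups were well apart, and the log2 fold change was -0.43 ± 0.06, or -26.0%. FBXW9, an F-box protein of ubiquitin ligases, stood at 10.2, 12.4 and 12.2 CPM in controls and 8.0, 7.73 and 6.81 CPM in knockouts. All 3 knockouts were lower, and at -0.62 ± 0.13 its shift was larger than that of PRDX2. TNPO2, a nuclear import receptor, stood at 155, 140 and 140 CPM in controls and 124, 125 and 115 CPM in knockouts (-0.26 ± 0.07), again without overlap. HOOK2, which links cargo to microtubules, went the other way, at 8.59 ± 0.562 CPM in controls and 9.18 ± 1.52 CPM in knockouts (0.10 ± 0.15), with overlapping groups. The lysosomal mannosidase gene MAN2B1 was at 65.6 ± 5.63 and 60.9 ± 7.99 CPM (-0.11 ± 0.11), also with overlap. WDR83, a scaffold protein, was at -0.27 ± 0.21.

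On the centromeric side the median was -0.26 over 15 tested genes, and 14 of the 15 were below 0. GADD45GIP1, a protein of the mitochondrial ribosome, stood at 97.0, 101 and 103 CPM in controls and 65.4, 79.0 and 74.2 CPM in knockouts (-0.46 ± 0.08). GCDH, a mitochondrial dehydrogenase of lysine breakdown, stood at 22.8, 26.4 and 25.7 CPM in controls and 16.1, 18.7 and 19.8 CPM in knockouts (-0.46 ± 0.11). Neither gene had overlapping groups, and in both the lowest library was knockout replicate 1. FARSA, a subunit of phenylalanyl-tRNA synthetase, went from 161 ± 5.72 to 119 ± 15.6 CPM (-0.44 ± 0.09). TRMT1, which methylates tRNA, went from 37.8 ± 0.727 to 31.5 ± 3.72 CPM (-0.26 ± 0.10), without overlap and without being called.

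NFIX, a transcription factor of the nuclear factor I family, stood at 185, 182 and 188 CPM in controls and 137, 142 and 132 CPM in knockouts. Each group was tight, and the log2 fold change was -0.43 ± 0.06. STX10, a SNARE protein of the trans-Golgi network, stood at 75.1, 73.0 and 71.7 CPM in controls and 53.8, 54.1 and 52.1 CPM in knockouts (-0.46 ± 0.07). NACC1, a BTB domain regulator of transcription, went from 246 ± 10.4 to 190 ± 4.41 CPM (-0.37 ± 0.06). Together with PRDX2 and GADD45GIP1 these 3 genes were called lower in the main test and under all 14 alternative settings. The remaining called genes, FBXW9, GCDH, FARSA and TNPO2, were called under 11, 11, 11 and 9 of them. PRDX2, GCDH, FARSA, GADD45GIP1, NFIX and STX10 lay between -26.0% and -27.5%, a group of 6 put together after its values were seen. The other called genes lay outside it, NACC1 at -22.9%, TNPO2 at -16.5% and FBXW9 at -35.1%. Leaving out single libraries moved the log2 fold change of GCDH between -0.52 and -0.37 and that of GADD45GIP1 between -0.52 and -0.39.

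Not every neighbour was lower. CALR, the calcium-binding chaperone of the endoplasmic reticulum and the most highly counted member, stood at 1081, 1325 and 1304 CPM in controls and 1239, 1203 and 1238 CPM in knockouts. The 3 knockouts fell inside the range of the controls (-0.01 ± 0.08), although the listed genes on either side of CALR, FARSA and GADD45GIP1, were lower. The low end of that range rests on control replicate 1 alone, and without this library the log2 fold change of CALR was -0.10. Per kilobase of annotated exon CALR was also the highest member in controls, at 456 CPM, ahead of PRDX2 at 73.2 and FARSA at 66.2. DNASE2, the acid nuclease that digests DNA in lysosomes, stood at 39.6, 48.6 and 43.6 CPM in controls and 41.0, 37.4 and 46.4 CPM in knockouts, with overlap (-0.08 ± 0.11). The kinase gene MAST1 was at -0.38 ± 0.20 with overlapping groups, and LYL1, a basic helix-loop-helix factor known from blood cells, at -0.26 ± 0.16. At the far end of the window, the splicing factor CCDC130 (-0.15 ± 0.13), the methionine salvage gene MRI1 (-0.24 ± 0.11) and ZSWIM4 (-0.04 ± 0.15) were shifted less. MRI1 was the only one of these 3 whose groups did not overlap, at 12.2 ± 0.396 and 10.3 ± 0.596 CPM. The unlisted gene C19orf53, which lies between MRI1 and ZSWIM4, was at -0.45 ± 0.07 without overlap.

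**Figure D2:**
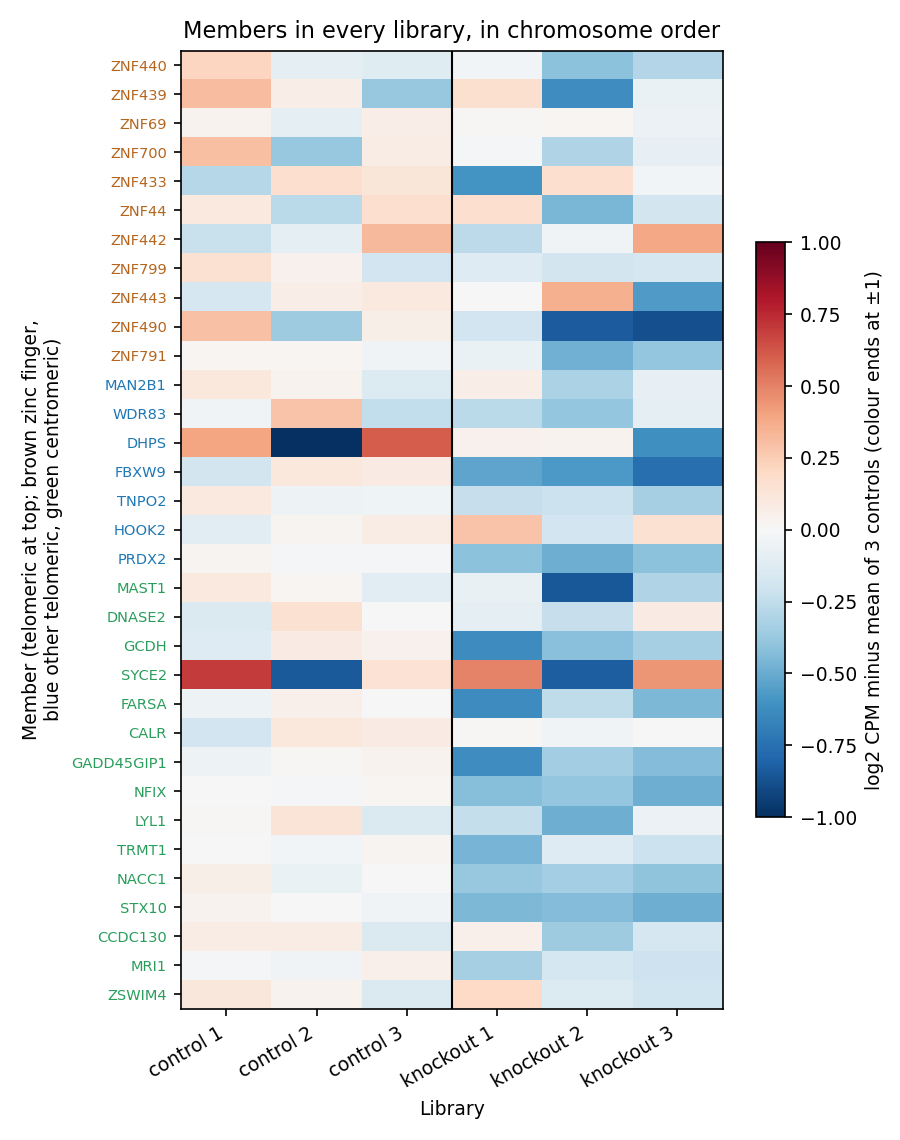
Level of each tested member in each of the 6 libraries, as log2 CPM minus the mean of the 3 controls, in chromosome order with the telomeric end at the top. Knockout columns are blue for PRDX2, GCDH, FARSA, GADD45GIP1, NFIX, NACC1 and STX10 in all 3 libraries, while CALR stays pale and the zinc finger rows vary from library to library.

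A few members had too few counts to be read. ZNF763 had 4, 10 and 11 counts in controls and 10, 7 and 6 in knockouts, and ZNF564 had 1, 3 and 3 against 6, 3 and 6. CACNA1A, a neuronal calcium channel gene, had 0 counts in all libraries except 2 in knockout replicate 1, and in the libraries at 0 that count allows 3 counts, or 0.101 to 0.119 CPM, counting error only. These 3 were not tested. DHPS, which makes the hypusine residue of a translation factor, and SYCE2, a meiotic chromosome protein, were tested at 0.475 and 0.274 CPM in controls, and their standard errors of 0.52 and 0.63 exceeded their shifts of -0.33 and 0.04. In GENCODE 29 some of these genes share exons with another gene on the same strand: 69.9% of exonic bases in ZNF564, 48.2% in ZNF763, 38.5% in DHPS and 88.1% in WDR83OS. ZNF490 shares 61.3%, with the same clone-named gene as ZNF564. How the authors' counting treated reads in shared exons is not stated in the labels used here. Over the 24 tested members with no such shared base the median was -0.26, against -0.25 over all 33.

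The shift did not form a smooth gradient away from RNASEH2A. Spearman's rank correlation between log2 fold change and absolute distance was 0.28 over the 33 tested members and 0.04 over the 22 that are not zinc finger genes, and it was 0.39 over all 52 tested genes of the window. These are descriptions across genes that share the same 6 libraries, and distance, zinc finger identity and low counts go together here, since all listed zinc finger genes lie on the telomeric side. Among tested members the log2 fold change also went with level (rank correlation of -0.35 with log2 control CPM), as it did more weakly over all tested genes (rank correlation of -0.13). The difference between zinc finger and other members was not tested.

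Genes of the same window, taken slightly wider than the listed genes, that were not listed were also mostly below 0. Of 19 unlisted tested genes 14 were below 0, 5 were called lower and 0 higher, and the median was -0.18, against 49.4% below 0 and 6.22% called lower over all tested genes. The median was -0.076 without control replicate 1 and -0.081 with no filter on low counts. Those called lower included IER2, an immediate early gene (-0.57 ± 0.08), C19orf53 (-0.45 ± 0.07), TRIR (-0.36 ± 0.06) and GET3, which inserts tail-anchored proteins into membranes (-0.31 ± 0.08). The number called lower was 3 without control replicate 2. JUNB, a transcription factor of the AP-1 family next to HOOK2, was at -0.18 ± 0.08 without overlap of the groups. The 9 unlisted genes with a ZNF symbol had a median of -0.07, and none of them was called. The 7 other protein-coding ones had a median of -0.36, with 6 below 0, and all 5 genes called lower were among them. At the edges, the outermost listed genes were ZNF440 (-0.25) and ZSWIM4 (-0.04). The nearest tested genes outside were HNRNPA1P10 (0.28), ZNF887P (0.53) and ZNF627 (-0.33) on the telomeric side and CC2D1A (-0.01), PODNL1 (0.47) and DCAF15 (-0.19) on the centromeric side. Of these 6, HNRNPA1P10, ZNF887P and PODNL1 had control means of only 1.58, 0.447 and 1.58 CPM, and none of the 6 was called by edgeR.

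Zinc finger genes in other places had medians above 0. The 214 tested genes with a ZNF symbol elsewhere on chromosome 19, antisense RNAs and pseudogenes included, had a median log2 fold change of 0.11, with 61 of 214 below 0, and the 248 on other chromosomes had a median of 0.08, with 87 of 248 below 0. The median of the 248 was 0.04 without knockout replicate 1. On chromosome 19 edgeR called 17 of the 214 higher and 1 lower, and on other chromosomes 8 of the 248 higher and 7 lower, against 5.88% of all tested genes called higher and 6.22% lower. On chromosome 19 between 6 and 20 were called higher when single libraries were left out, with 6 without control replicate 3 or knockout replicate 3, 7 without control replicate 2 and 9 without control replicate 1. On other chromosomes leaving out single libraries gave 1 to 14 higher, fewest without knockout replicate 3, and 2 to 13 lower, and both were most without knockout replicate 1. Relative to the medians of these genes the zinc finger genes beside RNASEH2A stood lower, by a difference that was not tested. On chromosome 19 the ZNF median differed by position, within bounds set after values were seen. It was 0.61 over 15 genes between 7 and 10 Mb and 0.11 over 164 genes from 27 to 59 Mb. It was below 0 on both sides of the window, at -0.31 over 3 genes from 10 Mb and -0.09 over 6 genes up to 20 Mb. Of 14 co-repressor genes through which KRAB zinc finger proteins act, 1 was called higher, against 5.88% of all tested genes, and 0 lower. Without knockout replicate 1, and with the replicate number as a block, 2 were called lower. The gene called higher was the heterochromatin protein gene CBX5, from 143 ± 4.70 to 186 ± 16.6 CPM (0.38 ± 0.08, edgeR adjusted p = 0.0125), and the call ended without control replicate 2 (adjusted p = 0.0701) or control replicate 3 (adjusted p = 0.0532), with a range of 0.000283 to 0.0701 over all settings tried. TRIM28, the co-repressor that binds the KRAB domain, was at 807 ± 21.6 and 736 ± 61.1 CPM (-0.13 ± 0.07, edgeR adjusted p = 0.239). SETDB1, its partner histone methyltransferase, was at 21.4 ± 0.995 and 20.5 ± 0.273 CPM (-0.06 ± 0.09, adjusted p = 0.716).

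The library medians show how even the shift was across libraries. For each library the median over genes of log2 CPM minus the control mean was taken. In centromeric members it was 0.00, 0.02 and 0.01 in controls and -0.33, -0.35 and -0.21 in knockouts. In the other telomeric members it was 0.03, 0.03 and -0.02 in controls and -0.23, -0.32 and -0.33 in knockouts. Both sets were thus separated in every library. In zinc finger members the values were 0.10, -0.10 and 0.07 in controls and -0.03, -0.30 and -0.17 in knockouts, and knockout replicate 1 lay above control replicate 2. The ZNF genes elsewhere on chromosome 19 also had their highest value in knockout replicate 1, at 0.19 against 0.05 and 0.10 in the other knockouts. Replicate 1 was the highest control for them as well, at 0.06 against -0.02 and -0.04.

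**Figure D3:**
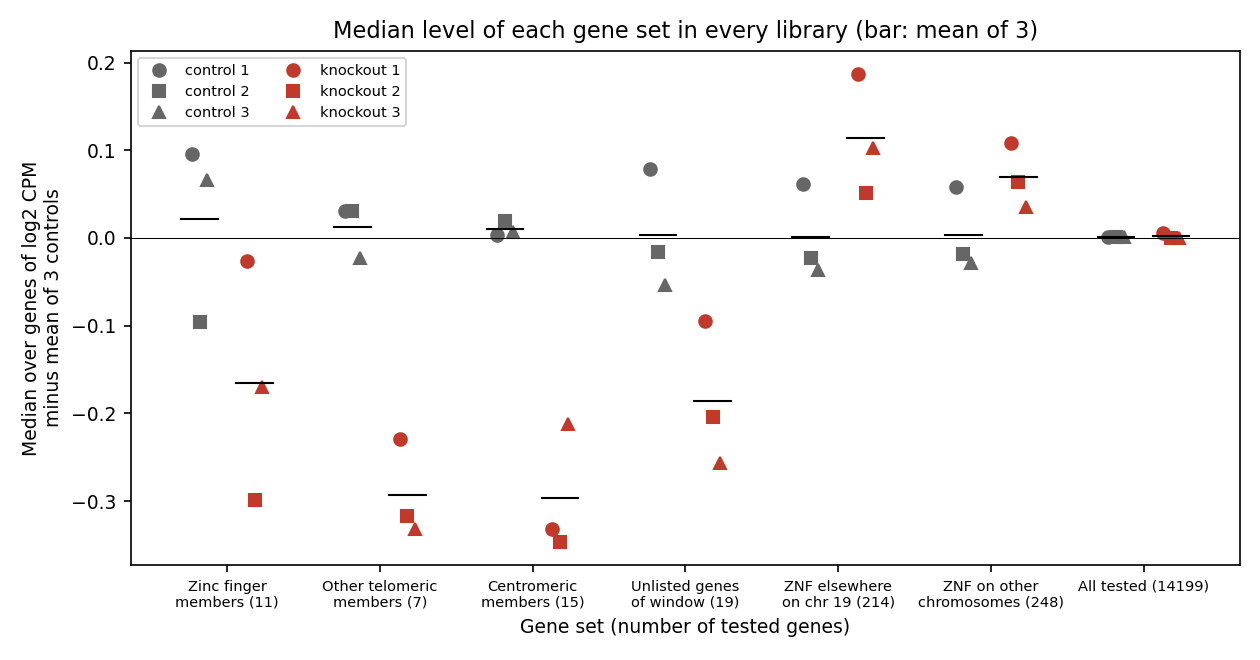
Median over each gene set of log2 CPM minus the mean of the 3 controls, for every library (grey controls, red knockouts, marker shape for the replicate, bar for the mean of 3). Centromeric and other telomeric members separate the groups, zinc finger members overlap, and ZNF genes elsewhere lie at 0.04 to 0.19 in the knockouts.

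The lowered stretch reached well beyond the listed genes. In bins of 1 Mb along chromosome 19, the median log2 fold change of tested genes was below 0 in every bin from 10 to 20 Mb, between -0.17 and -0.29. It stood at 0.06 in the next bin, from 20 to 21 Mb, which holds 9 genes, and at -0.18 over 7 genes from 23 to 24 Mb. From 20 to 24 Mb the median was 0.01 over 26 genes. Of these 26 genes 22 have a ZNF symbol, and the median of the rest was -0.15. Where the stretch ends on the centromeric side is thus not settled by these values. The bins from 13 to 17 Mb hold under 20 genes each, and without members the median from 13 to 14 Mb was -0.067 over 8 genes. A median as low, -0.28 over 26 genes, also occurred at the far end of the arm, from 0 to 1 Mb. On the telomeric side it changed sign between neighbouring bins, from 0.69 over 15 genes at 9 to 10 Mb to -0.27 over 28 genes at 10 to 11 Mb. With the members left out, 40 of 47 tested genes from 10 Mb up to the window were below 0 (median -0.27), as were 97 of 121 from the window to 20 Mb (median -0.23). Between 7 and 10 Mb 43 of 47 were above 0 (median 0.46), and between 0 and 7 Mb and from 27 to 59 Mb the medians were 0.03 and 0.07. The bounds at 7, 10, 20 and 24 Mb were set after these values were seen. In the knockout libraries the medians from 10 Mb up to the window were -0.26, -0.31 and -0.23, and from the window to 20 Mb they were -0.20, -0.25 and -0.23. RNASEH2A thus lay inside a broad stretch of lower fold changes, and the members' median of -0.25 was close to that of the genes on both sides. The cause of the broad shift was not tested.

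**Figure D4:**
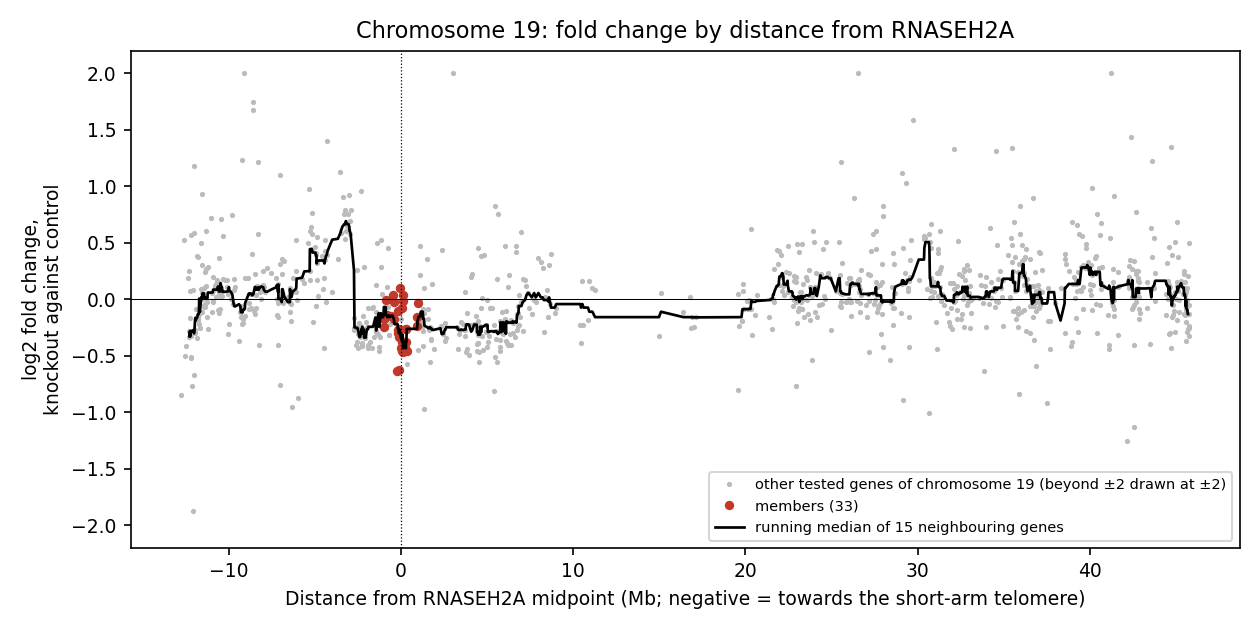
Log2 fold change of every tested gene of chromosome 19 (grey; members red) against the distance from RNASEH2A in Mb, with the running median of 15 neighbouring genes as a line. The line steps from above 0 to below 0 on the telomeric side of the members and stays below 0 on both sides of them.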

How the data were processed

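FastQC, STAR (version 2) and the build GRCh38 are named, per the submitters' processing notes. Libraries were strand-specific and poly-A enriched, per the labels. No label names the counting tool, its strand setting or its annotation. The authors deposited whole-number raw counts for 25330 gene symbols, the source of all main values, and a table of log2 CPM, whose prior count and filter the labels do not state and which served 1 alternative. Depth ran from 25419877 to 31596286 counts per library.

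Genes were kept by filterByExpr (14199), scaled by TMM and tested with edgeR 4.0.16 in R 4.3.3 (quasi-likelihood F test, two-sided, no covariate, Benjamini-Hochberg adjustment over all tested genes, threshold 0.05). CPM values are on the TMM scale, and ± is the SD of 3 libraries for CPM and the SE for log2 fold changes (absolute log2 fold change over the root of F). Log2 CPM used a prior count of 2. The fit was also run on simulated counts, with an outcome that is not reported here. Members and gene lists were chosen with earlier results of these data known. All members are named, with values in every library for the 3 members of each set (zinc finger, other telomeric, centromeric) with the largest shift at 5 CPM or more and for CALR, DNASE2, PRDX2, NFIX, ZNF443 and ZNF799. Positions are RefSeq spans (GRCh38.p14) and exon sharing is from GENCODE 29, both on the build of the files. Alternatives were DESeq2 1.42.0, limma-voom and limma (3.58.1) on the deposited log2 CPM, RLE factors, library size scaling only, 2 filters, the replicate block and leaving out each library. Replicates of a group differed by more than counting noise (chi-square per degree of freedom of 2.48 to 37.0) and were kept separate. 1 unlisted gene of the window is not reported here. The limit given for libraries at 0 counts covers counting error only, while SD and SE also carry the spread between libraries.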

Additional observations from a re-analysis of the deposited data

How the results depend on the processing

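The medians of members, unlisted genes and zinc finger genes elsewhere kept their sign under every alternative run. Medians by segment of the chromosome, of parts of the unlisted genes and of co-repressor genes were not recomputed. Some values of single members did change sign, by less than the spread between replicates, when 1 library was left out. ZNF439, at -0.17 in the main fit, lay between -0.36 and 0.03, the latter without knockout replicate 2. ZNF443 lay between -0.25 and 0.19 and CALR between -0.10 and 0.04, and CALR was also at 0.0012 with library size scaling only. Only the members with values given in every library were looked at in this way. With a mean of at least 1 CPM required, the centromeric median was -0.32 and Spearman's rank correlation with distance 0.35. The median of unlisted genes of the window was -0.093 on the deposited log2 CPM and -0.081 with no filter on low counts. Leaving out each library in turn gave 524 to 3430 called genes in all, 5 to 12 members called lower and 0 to 3 co-repressor genes called. It gave medians of -0.32 to -0.26 for members that are not zinc finger genes, -0.29 to -0.21 for the telomeric and -0.36 to -0.26 for the centromeric ones among them, -0.22 to -0.10 for zinc finger members, -0.24 to -0.076 for unlisted genes, and a rank correlation with distance of 0.22 to 0.36. This correlation was 0.040 with zinc finger members set aside and 0.39 over all tested genes of the window. Deviations of same-numbered libraries correlated at 0.32, 0.14 and 0.09. Control replicate 1 correlated at -0.24 and -0.15 with knockout replicates 2 and 3. Control replicate 3 correlated at 0.14 with knockout replicate 2, against 0.09 with knockout replicate 3. What same-numbered libraries share beyond a number is not stated in the labels used here and was not tested. With the replicate block 3099 genes, 11 members and 3 co-repressor genes (2 lower, 1 higher) were called. A limit on protein identity between zinc finger members was not run, as no protein sequences were used here. Low counts limit what can be read for ZNF763, ZNF564, DHPS, SYCE2 and CACNA1A.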
